A study of Saccharomyces cerevisiae with 12 samples.

Results

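Budding yeast cells (Saccharomyces cerevisiae) whose histone H3 genes were deleted or shut off were compared with wild-type cells in the same glucose medium. The H3i group (strain DGS200.1, H3i genotype, YPD medium) and the WT group (the wild-type strain, given as YEF473A in one label and YEF4734A in another, YPD medium) held 3 biological replicates each, so that 6 of the 12 libraries of the series entered the comparison. H3i cells lack HHT1, 1 of the 2 genes for histone H3, and carry the other, HHT2, behind a GAL1 promoter in place of its own. Both strains were grown in galactose medium (YPGal) and moved to glucose medium (YPD), which shuts the GAL1 promoter, for a time not given in the sources used here. Libraries of H3i and WT in YPGal, 3 replicates each, make up the other 6 and show the 2 strains where HHT2 is on. H3i is 1 strain made by 2 changes at H3 genes, so neither change can be told apart from the other, and H3 protein was not measured.

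Pairs of each of the histones H2A, H2B, H3 and H4 wrap DNA into a nucleosome, the unit of chromatin. In yeast the 8 genes for these proteins lie in 4 head-to-head pairs, each with a shared region between the start codons from which both genes are transcribed. Transcription of these genes peaks as DNA is copied and depends on the activator Spt10, which binds elements in the shared regions, while the HIR proteins hold it down outside that phase. Nucleosomes at promoters keep many genes shut until an activator arrives, and nucleosomes near chromosome ends are bound by the silencing proteins Sir2, Sir3 and Sir4, which Rap1 brings there. Rap1 also binds the promoters of most ribosomal protein genes, which are among the most strongly transcribed genes of growing cells.

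The shared regions are shown first, since the strain was made by changing one of them. Between the start codons of HHT2 and HHF2, a gene for histone H4, lie 676 bases of chromosome XIV (RefSeq R64 reference, the sacCer3 build, positions 576051 to 576726). The 300 bases from 350 to 51 bases before the HHT2 start codon are printed on the strand of HHT2 (chrXIV:576101-576400, minus strand), with capitals for the Spt10 element (TTCC, any 6 bases, TTC, any base, C), which begins 310 bases before the start codon, and for TATAAA, which begins 114 bases before it.
HHT2 upstream: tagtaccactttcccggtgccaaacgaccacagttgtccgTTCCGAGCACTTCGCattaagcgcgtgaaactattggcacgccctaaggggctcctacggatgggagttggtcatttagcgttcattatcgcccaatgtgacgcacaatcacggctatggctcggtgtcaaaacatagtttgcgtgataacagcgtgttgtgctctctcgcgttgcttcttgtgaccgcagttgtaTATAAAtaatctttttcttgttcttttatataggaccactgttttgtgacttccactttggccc
The same element is shown from the other 3 pairs, with 15 bases on either side, to let the copies be compared: HHT1 and HHF1 (chrII:255929-255973, minus strand), HTA1 and HTB1 (chrIV:915099-915143, plus strand, and chrIV:915122-915166, minus strand) and HTA2 and HTB2 (chrII:236093-236137, minus strand).
HHT1-HHF1 copy: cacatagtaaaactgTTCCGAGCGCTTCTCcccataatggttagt
HTA1-HTB1 copy 1: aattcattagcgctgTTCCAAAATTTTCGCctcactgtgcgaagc
HTA1-HTB1 copy 2: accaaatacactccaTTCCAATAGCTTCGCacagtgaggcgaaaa
HTA2-HTB2 copy: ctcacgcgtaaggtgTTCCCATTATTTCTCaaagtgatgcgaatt
These letters, searched on both strands, occurred within 500 bases before the start codon of 8 of 8 core histone genes and of 2.94% of the 5844 coding genes tested. In the nearer window from 250 bases before to 50 after the start codon they occurred for 0 of 8 and for 1.51%. These are reference sequences; the labels say of H3i that the native HHT2 promoter was replaced, with no coordinates.

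Counts assigned to genes came to 2176277, 40950610 and 11628815 in H3i YPD (replicates 1, 2 and 3, the order kept for all values below) and 2312502, 52278567 and 9258447 in WT YPD. Levels are counts per 1000000 gene counts of a library (CPM). Replicate 2 stood apart in both groups: of the genes at 50 CPM or more in replicates 1 and 3, 21.8% in H3i YPD and 41.3% in WT YPD fell under 0.1 of that level in replicate 2. Across 5842 genes, log2 CPM correlated between replicates 1 and 3 at r = 0.933 in H3i YPD and 0.883 in WT YPD, and between replicate 2 and either of them at 0.427 to 0.486; genes are not independent replicates. WT replicate 3 also stood apart, by marker and mating-type genes described further on. Fold changes are therefore from an edgeR fit of replicates 1 and 3 (n = 2 per group, 8 libraries with those in YPGal), replicate 2 is given beside them, and the main counts are repeated with WT replicate 3 dropped in both media. That drop leaves 1 WT library per medium, and the libraries kept are those that also made the calls. Fold changes are on the log2 scale with their standard error, scaled by TMM, which sets the bulk of genes to no change, and adjusted p-values are by the method of Benjamini and Hochberg over all genes tested.

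The H3 genes were low in every H3i YPD library. HHT1, the deleted gene (YBR010W, chromosome II, 256331 to 256741), had 0, 2.66 and 0 CPM in H3i and 671, 768 and 634 CPM in WT. Over replicates 1 and 3 it was at least 2952-fold higher in WT, taking 3 counts, the floor used throughout, for the H3i group. HHT2 (YNL031C, chromosome XIV, 575640 to 576050) had 14.7, 21.5 and 30.3 CPM in H3i YPD, against 781, 834 and 793 CPM in WT YPD. The groups did not overlap, and HHT2 fell by 5.70 ± 0.53 on the log2 scale (SE, adjusted p = 0.000818). In YPGal the same gene had 3694, 4353 and 2284 CPM in H3i, against 911, 1300 and 936 CPM in WT.

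HHF2, which shares its upstream region with HHT2 and was not itself targeted, was also low. It had 28.5, 8.74 and 58.9 CPM in H3i YPD and 647, 678 and 800 CPM in WT YPD, with no overlap (log2 fold change −4.71 ± 0.39, adjusted p = 0.0008). In YPGal, where HHT2 was on, HHF2 stood at 63.9, 5.13 and 126 CPM in H3i and 809, 1306 and 774 CPM in WT, again with no overlap (−3.19, adjusted p = 0.0603). The other H4 gene, HHF1, which lies beside the deleted HHT1, had 1169, 1173 and 1180 CPM in H3i YPD and 639, 668 and 820 CPM in WT YPD. The 3 H3i values were above the 3 WT values, but on the scale of the fit, which allows for the change in composition described below, HHF1 did not pass the test (0.09 ± 0.27, adjusted p = 0.807); with library totals it did (0.69, adjusted p = 0.044).

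Of the 4 genes for H2A and H2B, HTB2 was called lower and the other 3 did not pass the test. HTA1 (H2A) had 1062, 1199 and 922 CPM in H3i and 636, 784 and 884 CPM in WT. HTA2 (H2A) had 686, 1084 and 545 CPM in H3i and 641, 850 and 520 CPM in WT, and HTB1 (H2B) 1032, 1157 and 839 CPM in H3i and 693, 752 and 933 CPM in WT. Their H3i and WT levels overlapped for HTA2 and HTB1, and the sign of the 3 depended on the scaling (log2 fold changes −0.21 ± 0.29, −0.52 ± 0.27 and −0.40 ± 0.30, and above 0 with library totals). HTB2 (H2B) had 347, 548 and 356 CPM in H3i and 558, 720 and 541 CPM in WT, a pair of groups that overlap by 1 library, and was called lower (−1.24 ± 0.28, adjusted p = 0.00832). The call of HTB2 was lost with library totals (adjusted p = 0.0618), without H3i replicate 1 (0.0551), without WT replicate 3 (0.064) and with WT replicate 3 dropped in both media (0.056). The H2A variant and the linker histone were lower. HTZ1, the variant found at promoters, had 47.8, 44.0 and 48.6 CPM in H3i and 95.1, 3.23 and 179 CPM in WT (−2.07 ± 0.24, adjusted p = 0.000875); the low WT value is in replicate 2. HHO1, which binds linker DNA, had 73.1, 61.7 and 60.4 CPM in H3i and 129, 182 and 97.9 CPM in WT, with no overlap (−1.36 ± 0.21, adjusted p = 0.00167). CSE4, the H3 variant of centromeres, had 35.8, 3.32 and 67.9 CPM in H3i and 35.9, 0.0191 and 55.2 CPM in WT and did not pass the test (adjusted p = 0.227).

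**Figure D1:**
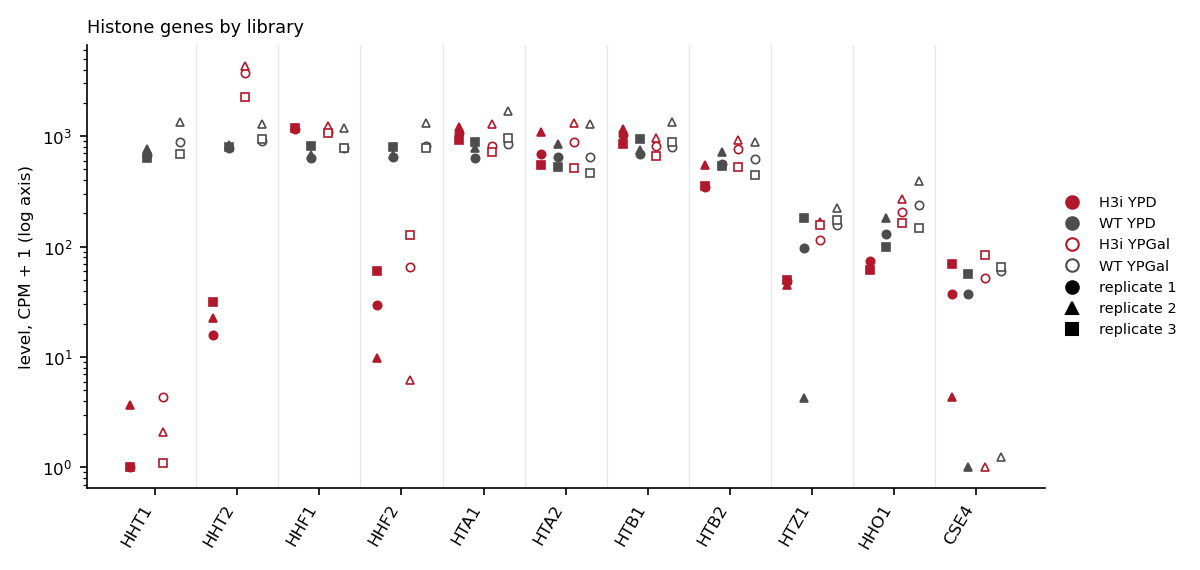
Levels of histone genes in each library as CPM + 1 on a log axis, with H3i YPD left of WT YPD (filled) and H3i YPGal left of WT YPGal (open), and a symbol for each replicate. HHT1 is near 0 in all H3i libraries, HHT2 is low in H3i YPD alone, and HHF2 is low in H3i in both media.

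The groups differed across much of the transcriptome. Of 6354 genes tested, 3163 had an adjusted p under 0.05 and are termed called (49.8%): 1654 were higher in H3i (26.0%) and 1509 lower (23.7%). A change of at least 2-fold was called for 2564 genes, 1409 higher and 1155 lower. The shares of 26.0% and 23.7% are the ones to set beside the counts of each gene list below. Lack of overlap between groups is stated for named genes, and its share over all genes is not given here. Many named genes were picked for large fold changes, so lack of overlap describes them and is no separate support. The middle of the distribution was near 0 (median log2 fold change 0.10 over all genes). Scaled by library totals the same libraries called 55.4% of genes, with 2723 higher (42.9%), 799 lower (12.6%) and a median of 0.70, so that a small fall on the scale of the fit can be a small rise in CPM. Libraries hold shares of RNA, so fewer cells that express a gene, less of its RNA per cell, and more of other RNA cannot be told apart.

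Replicate 2 and WT replicate 3 were each examined apart. Within replicate 2, 1424 of the 1566 genes called higher that reached 1 CPM there were also higher in H3i (90.9%). Only 880 of 1468 genes called lower were lower there (59.9%). These directions are on library totals, and the share of all genes higher in H3i within replicate 2 is not given here. The G1/S and DNA replication lists had medians of 0.15 and 0.12 in the fit. Within replicate 2, 32 of 41 and 39 of 51 of these genes were higher in H3i. Neither share alone therefore measures agreement with the calls. A fit of all 12 libraries with a replicate block called 716 genes, of which 709 were called with the same sign by the fit of replicates 1 and 3; with a kit term in its place 6 genes were called. With WT replicate 3 dropped in both media, 2590 genes were called (41.5%), 1318 higher (21.1%) and 1272 lower (20.4%). Of the genes called before, 3130 could be tested in that fit, and 3130 had the same sign. That fit leaves 1 WT library per medium and keeps only libraries that had made the calls. The shared sign was therefore largely fixed beforehand and is no separate check. Leaving out WT YPD replicate 1 gave 1917 called genes, 992 higher and 925 lower, and leaving out WT YPD replicate 3 gave 1011 higher.

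**Figure D2:**
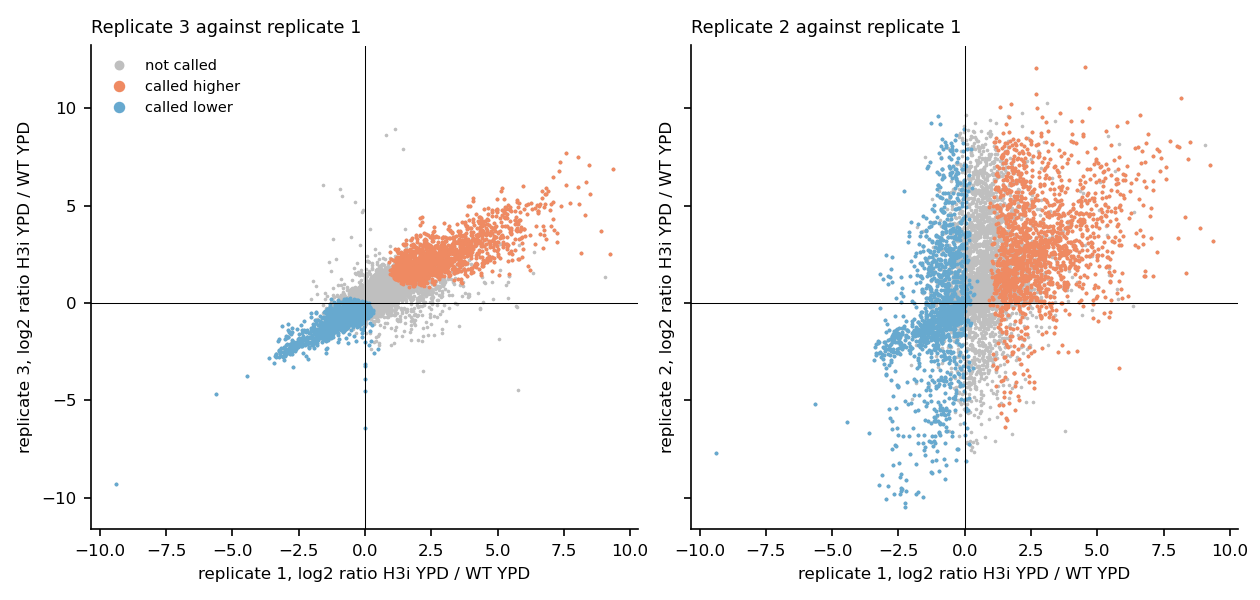
Log2 ratio of H3i YPD over WT YPD for each gene tested (CPM + 1, library totals) in replicate 3 (left) and replicate 2 (right) against replicate 1, coloured by the call from replicates 1 and 3. Called genes lie along 1 diagonal in replicates 1 and 3, which made the calls, and spread along the vertical axis in replicate 2, where 59.9% of those called lower kept their direction.

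Genes of the translation machinery were lower in H3i as a body. Ribosomal protein genes took 3.14%, 3.79% and 3.29% of gene counts in H3i YPD, against 19.2%, 18.8% and 14.2% in WT YPD, with no overlap in 3 replicates. In the large subunit 76 of 81 tested genes were called lower and 0 higher (median log2 fold change −2.95), and in the small subunit 56 of 56 were called lower (median −2.97), beside 23.7% of all genes. The medians within replicate 2 alone, on library totals, were −2.00 and −2.27, so that this fall was also seen in the replicate left out of the fit. With WT replicate 3 dropped in both media the calls were 76 and 56.

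RPS21A, of the small subunit, had 75.4, 149 and 73.4 CPM in H3i and 817, 1148 and 635 CPM in WT (−3.86 ± 0.36, adjusted p = 0.000818). RPL12A, of the large subunit, had 26.2, 2.88 and 43.4 CPM in H3i and 330, 399 and 313 CPM in WT (−3.78 ± 0.40). RPL27B had 88.2, 202 and 156 CPM in H3i and 911, 1294 and 1075 CPM in WT (−3.65 ± 0.36), and RPS17B 101, 306 and 122 CPM in H3i and 1062, 1463 and 825 CPM in WT (−3.64 ± 0.39). In each of these 4 genes all H3i libraries lay below all WT libraries, and in YPGal no such gap was present. RPS21A, for example, had 589, 1100 and 298 CPM in H3i YPGal and 545, 969 and 476 CPM in WT YPGal.

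RPL27B and RPS17B hold the core of the Rap1 consensus (CACCC, any 2 bases, ACA) in their upstream regions. The stretches are shown because the series is about Rap1 binding; capitals mark the core, which begins 336 and 297 bases before the start codon (chrIV:1401409-1401468, plus strand, and chrIV:1355816-1355875, minus strand, both on the strand of the gene).
RPL27B upstream: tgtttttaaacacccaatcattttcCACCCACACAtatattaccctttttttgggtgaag
RPS17B upstream: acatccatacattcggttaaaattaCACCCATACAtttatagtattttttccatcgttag
Searched on both strands of 500 bases before the start codon, the core was present for 29 of 137 ribosomal protein genes (21.2%), 3.77% of genes called lower, 1.73% of genes called higher and 2.22% of the 5844 coding genes tested. In the window from 250 bases before to 50 after the start codon it was present for 6 of 137 ribosomal protein genes and 1.04% of all. RAP1 itself had 173, 196 and 215 CPM in H3i and 171, 289 and 204 CPM in WT, which overlap, and did not pass the test (−0.57 ± 0.23, adjusted p = 0.0692).

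Translation factors fell with the ribosome: 24 of 26 tested were called lower and 0 higher (median −2.29). EGD2, a subunit of the complex that binds new polypeptides at the ribosome, had 125, 10.8 and 111 CPM in H3i and 1069, 3.96 and 754 CPM in WT (−3.53 ± 0.31, adjusted p = 0.000818); replicate 2, where both libraries were low, did not show the gap. Of 95 ribosome biogenesis genes, 84 were called lower and 0 higher (median −1.45). Without WT YPD replicate 1 the calls came to 47, with library totals to 53 and with WT replicate 3 dropped in both media to 83. Within replicate 2, 54 of the 95 were lower in H3i. CBF5, the pseudouridine synthase of snoRNPs, had 162, 76.7 and 271 CPM in H3i and 922, 1485 and 999.8 CPM in WT (−2.81 ± 0.34). NOP56, a core protein of box C/D snoRNPs, had 182, 91.3 and 328 CPM in H3i and 828, 1562 and 1413 CPM in WT (−2.76 ± 0.34), and NHP2, a partner of Cbf5, 84.5, 194 and 167 CPM in H3i and 380, 648 and 697 CPM in WT (−2.72 ± 0.28). The groups did not overlap in any of the 3.

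The PAC core, GCGATGAG, a promoter element of ribosome biogenesis genes, occurred in the window from 250 before to 50 after the start codon of 51 of the 95 (53.7%), 8.62% of genes called lower, 1.13% of genes called higher and 4.0% of all coding genes tested, both strands counted. It is shown for the pair of list members with the lowest fold changes among those that hold it within 250 bases, DBP2 (chrXIV:413459-413516, plus strand) and RRP8 (chrIV:611959-612016, plus strand), with the core, or its complement, in capitals; it begins 155 and 89 bases before their start codons.
DBP2 upstream: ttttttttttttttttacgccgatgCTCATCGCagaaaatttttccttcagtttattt
RRP8 upstream: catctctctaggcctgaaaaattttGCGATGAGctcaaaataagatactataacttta
DBP2, an RNA helicase, had 160, 10.3 and 765 CPM in H3i and 962, 1816 and 1947 CPM in WT (−2.64 ± 0.56, adjusted p = 0.00648; 0.0519 without WT replicate 1). RRP8, a methyltransferase of ribosomal RNA, had 32.2, 92.1 and 152 CPM in H3i and 161, 408 and 407 CPM in WT (−2.47 ± 0.33, adjusted p = 0.00115). Both were chosen by their promoters and values after these were seen.

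**Figure D3:**
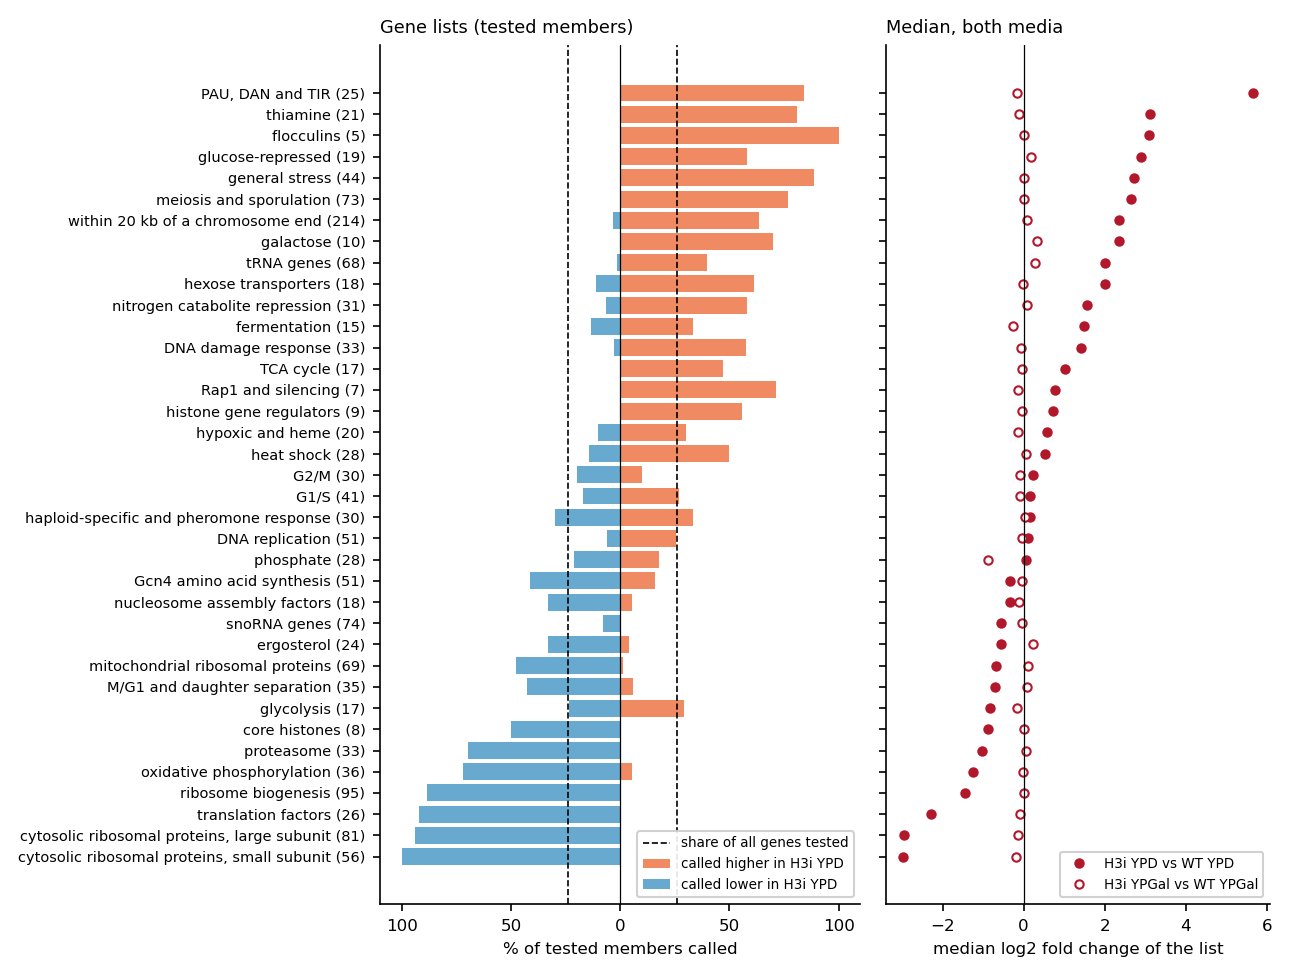
Share of each list's tested members called higher (right of 0) and lower (left) in H3i YPD against WT YPD, with dashed lines at the shares of all genes, 26.0% and 23.7%, and beside it each list's median log2 fold change in YPD (filled) and in YPGal (open). Lists run from ribosomal proteins, at −2.97, to PAU, DAN and TIR genes, at 5.65; among the lists drawn, the YPGal median farthest from 0 is that of phosphate genes, at −0.89, and the a-specific and alpha-specific lists, at 2.58 and −3.03 in YPGal, are not drawn.

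Stress genes moved the other way. Of 44 genes of the general stress response, 39 were called higher and 0 lower (median 2.72), beside 26.0% of all genes; the count was 25 without WT YPD replicate 1 and 41 with WT replicate 3 dropped in both media. Within replicate 2, 43 of the 44 were higher in H3i, on library totals and with no share of all genes to set beside it. GND2, a phosphogluconate dehydrogenase, had 598, 1057 and 499 CPM in H3i and 1.30, 2.93 and 7.13 CPM in WT (6.63 ± 0.69, adjusted p = 0.000818), and GRE1, a hydrophilin of stressed cells, 304, 524 and 436 CPM in H3i and 1.73, 2.43 and 11.9 CPM in WT (5.61 ± 0.62). All H3i libraries lay far above all WT libraries for both genes, and the YPGal libraries of both strains lay between 6.26 and 102 CPM. Of 28 heat shock genes, 14 were called higher and 4 lower, and the count of lower genes was 2 without H3i YPD replicate 3, WT YPD replicate 1 or WT YPD replicate 3. SSA4 and SSA3, Hsp70 chaperones that are nearly silent without stress, reached 4581, 8123 and 2295 CPM and 4707, 5806 and 1017 CPM in H3i, against 25.9, 45.2 and 72.6 CPM and 42.4, 74.4 and 73.9 CPM in WT (5.74 ± 0.67 and 4.95 ± 0.75). These chaperones share sequence with other Hsp70 genes, and reads that align to more than 1 place were set aside by the authors' counting, so that such levels may be understated.

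The stress response element CCCCT, bound by Msn2 and Msn4, is shown in the GND2 promoter, bases 310 to 151 before the start codon (chrVII:1004314-1004473, plus strand), with capitals for its 2 copies.
GND2 upstream: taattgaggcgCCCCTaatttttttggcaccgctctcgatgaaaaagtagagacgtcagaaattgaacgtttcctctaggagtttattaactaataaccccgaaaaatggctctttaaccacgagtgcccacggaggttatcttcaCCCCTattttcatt
In the window of 250 bases before to 50 after the start codon, both strands, it occurred in 28 of 44 general stress genes (63.6%), 25.8% of genes called higher, 17.5% of genes called lower and 21.7% of all coding genes tested; the element helped to define this response, so the share in the list is no independent result. TATAAA was present in the same window for 50.7% of genes called higher, 38.0% of genes called lower and 44.9% of all, and for 22 of 25 PAU, DAN and TIR genes.

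DNA damage genes were also higher: 19 of 33 were called higher and 1 lower (median 1.41). HUG1, an inhibitor of ribonucleotide reductase, had 828, 809 and 553 CPM in H3i and 1.30, 1.66 and 10.3 CPM in WT (6.22 ± 0.66, adjusted p = 0.000818). RNR3, the damage-induced large subunit of that enzyme, had 291, 8.01 and 109 CPM in H3i and 2.16, 0.23 and 3.13 CPM in WT (5.20 ± 0.67, adjusted p = 0.00101). DDI3, a gene induced by DNA-damaging agents whose twin copy DDI2 is nearly identical, had 100, 214 and 94.8 CPM in H3i and 0, 0.478 and 1.30 CPM in WT (6.33 ± 0.89). No H3i library overlapped a WT library for these 3 genes. In YPGal, HUG1 stood at 6.68, 4.89 and 5.78 CPM in H3i and 3.56, 10.9 and 7.63 CPM in WT. The Crt1 X-box core is the known repressor site of RNR3 and HUG1. It was searched on both strands as GT, any 2 bases, CCAT, any base, G, any 2 bases, AC. In the window from 250 bases before to 50 after the start codon it matched 8 promoters (0.137%) and 0 of this list's 33. Within 500 bases before the start codon it matched 24 promoters (0.411%) and again 0 of the 33. This says only that these letters are not in these windows.

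Several of the genes with the largest fold changes were at or near 0 in WT. FDH1, a formate dehydrogenase, had 190, 449 and 228 CPM in H3i and 0, 4.50 and 0.108 CPM in WT. With 3069 counts in H3i and 1 in WT over replicates 1 and 3, the ratio was 2572, with an exact 95% counting interval from 461 to 101600. DAL80, a repressor of nitrogen catabolic genes, had 62.0, 102 and 70.4 CPM in H3i and 0, 0.0574 and 0.108 CPM in WT (ratio 799.6, counting interval 143 to 31620). Of the 8 called genes with the highest fold changes among those at 10 CPM or more, the other 6 had 0 counts in WT in replicates 1 and 3. ERR3, an enolase-related gene (43.6, 5.37 and 26.1 CPM in H3i, 0.325 CPM in WT replicate 2), was at least 111.5-fold higher. PAU19, a seripauperin (30.8, 4.22 and 26.7 CPM in H3i, 0.0191 CPM in WT replicate 2), was at least 105-fold higher, and YFR057W, of unknown function (14.7, 26.4 and 30.3 CPM in H3i, 0.0191 CPM in WT replicate 2), at least 107-fold higher. RRT7 (13.8, 23.8 and 30.5 CPM in H3i, 0 in all WT YPD libraries) was at least 108-fold higher, and HSP32, of a family of near-identical genes close to chromosome ends (10.1, 4.32 and 15.7 CPM in H3i, 0.325 CPM in WT replicate 2), at least 57.3-fold. The transfer RNA gene tD(GUC)J2 (3.22, 13.1 and 19.8 CPM in H3i, 0 in the 3 WT YPD libraries) was at least 66.2-fold higher, and its call was lost without WT replicate 3 (adjusted p = 0.148). For the 8 genes, H3i libraries stood above WT libraries in 3 of 3 replicates. Among the lowest fold changes, after the H3 genes and HHF2, was a pair of features named here by ID. Neither had coordinates in the RefSeq reference, so whether they share reads with overlapping genes was not checked. YBR191W-A had 0, 0.244 and 1.63 CPM in H3i and 5.62, 82.4 and 25.1 CPM in WT (−4.64 ± 0.80), and YPL142C 0, 0 and 3.61 CPM in H3i and 3.46, 35.2 and 32.9 CPM in WT (−4.16 ± 0.76).

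Gene families that WT cells keep silent in glucose were read in H3i. Of 30 PAU, DAN and TIR genes, cell wall mannoproteins of oxygen-poor cells, 25 passed the filter and 21 were called higher, with 0 lower. A gene that passes the filter only through H3i YPD must be higher there, so these counts describe and do not test. PAU5 had 324, 2.15 and 105 CPM in H3i and 0, 0.0956 and 0.432 CPM in WT (8.23 ± 0.68, adjusted p = 0.0008), and DAN1 55.1, 22.3 and 66.4 CPM in H3i and 0.432, 0 and 1.19 CPM in WT (5.51 ± 0.66). PAU genes are near copies of each other. DAN1 is also in a list of 20 hypoxic and heme genes, of which 6 were called higher and 2 lower (median 0.58). All genes had 26.0% called higher and 23.7% lower. OLE1, the fatty acid desaturase, was 1 of the 2 called lower in that list. It had 379, 550 and 731 CPM in H3i and 1435, 3614 and 3590 CPM in WT (−2.72 ± 0.38, adjusted p = 0.00136).

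Meiosis and sporulation genes, off in dividing haploids, were called higher in 56 of 73 tested and lower in 0 (median 2.64), and in 53 with WT replicate 3 dropped in both media. LDS1, a lipid droplet protein of spores, had 136, 260 and 205 CPM in H3i and 0, 0.383 and 1.30 CPM in WT (7.30 ± 0.71, adjusted p = 0.000818). OSW1, of the spore wall, had 35.4, 4.42 and 96.2 CPM in H3i and 0, 0 and 0.648 CPM in WT (7.01 ± 0.81), and SPO20, a SNARE of the prospore membrane, 104, 181 and 106 CPM in H3i and 0.865, 0 and 2.05 CPM in WT (5.63 ± 0.59). Thiamine genes were called higher in 17 of 21 (median 3.11). THI5 and THI12, members of a family of 4 near-identical genes for the pyrimidine of thiamine, had 305, 157 and 216 CPM and 345, 401 and 307 CPM in H3i, against 0.865, 0.421 and 0.432 CPM and 0, 1.38 and 1.30 CPM in WT (8.24 ± 0.64 and 7.76 ± 0.55). All 5 flocculin genes were called higher: FLO1 had 312, 563 and 396 CPM in H3i and 7.78, 3.29 and 16.3 CPM in WT (4.23 ± 0.38), and FLO11 209, 25.3 and 402 CPM in H3i and 9.08, 0.0574 and 18.8 CPM in WT (3.88 ± 0.26, adjusted p = 0.000608). Their groups did not overlap in any of the 3 replicates.

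**Figure D4:**
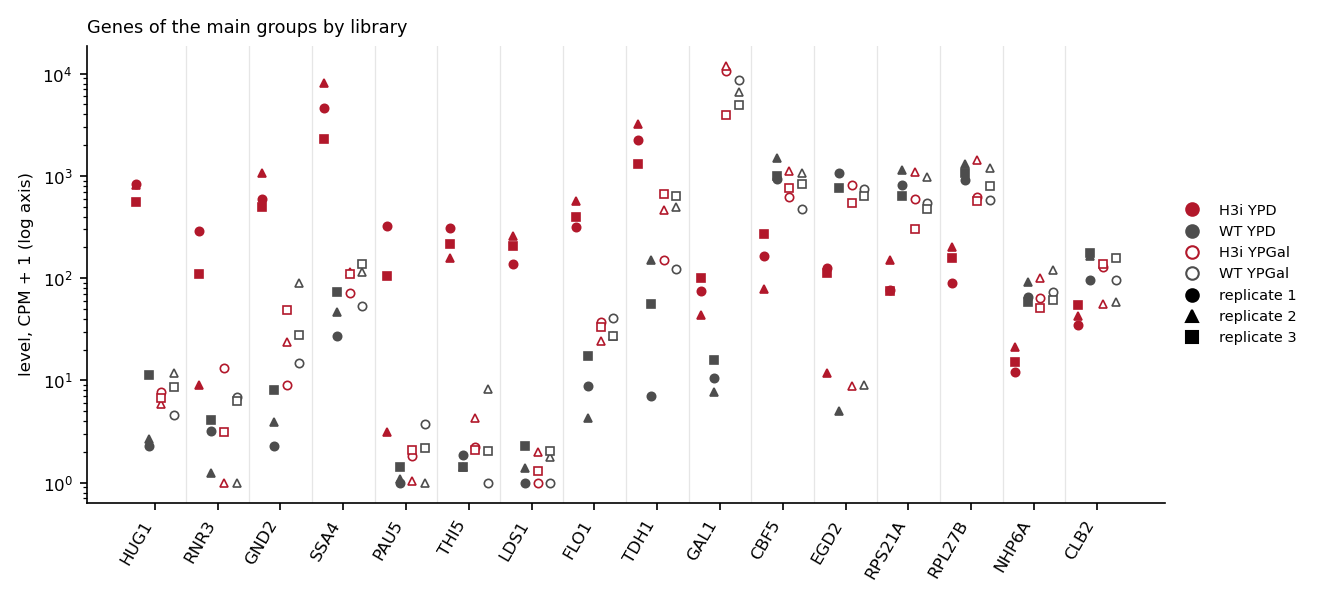
Levels of 16 genes in each library as CPM + 1 on a log axis, in the order H3i YPD, WT YPD (filled), H3i YPGal, WT YPGal (open). From HUG1 to GAL1 the H3i YPD libraries stand above the WT YPD libraries, as for HUG1 at 828, 809 and 553 CPM against 1.30, 1.66 and 10.3 CPM; from CBF5 to CLB2 they stand below, except EGD2 in replicate 2.

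Position and prior level both went with the direction of change. Of genes whose nearer end lies within 20 kb of a chromosome end, 256 are in the files and 214 were tested. Of those tested, 136 were called higher and 7 lower (median 2.36). Fewer were called lower without WT YPD replicate 1, WT YPD replicate 3 or H3i YPD replicate 3. Under 10 kb, 95 of 126 genes were tested, and the filter can raise the shares called higher. By distance the share called higher was 54.7% under 10 kb, 70.6% from 10 to 20 kb, 46.7% from 20 to 30 kb, 24.6% from 30 to 100 kb and 23.6% beyond, beside 26.0% of all genes. Genes were also grouped by their mean level in WT YPGal. Those libraries are not compared here but belong to the same fit, so they entered its filter, scaling and spread. Genes at 1 to 5 CPM, of which 413 of 428 were tested, were called higher in 34.4% and lower in 1.45%. Those at 5 to 20 CPM were called higher in 46.2% and lower in 3.33%. Genes at 20 to 100 CPM were called higher in 32.4% and lower in 10.2%, those at 100 to 500 CPM in 10.4% and 43.2%, and those at 500 CPM and over in 6.68% and 70.7%. All genes at 5 CPM and over were tested. Ribosomal protein genes, most of them called lower, were not set apart in these groups, and their part in each share is not given here. Under 1 CPM, 301 of 1059 features passed the filter, and 66.4% of those were called higher, a share that the filter itself raises.

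Near and far genes were also set side by side at equal level. Under 1 CPM in WT YPGal, 74.4% of the 43 genes tested within 20 kb of an end and 77.4% of the 62 tested over 100 kb from one were called higher, and at 1 to 5 CPM 64.4% of 45 near genes and 43.3% of 141 far genes. At 5 to 20 CPM in WT YPGal, 76.6% of the 47 genes within 20 kb of an end and 50.4% of the 254 genes over 100 kb from one were called higher. At 20 to 100 CPM the shares were 58.2% of 55 near genes and 31.6% of 1913 far genes, and at 100 to 500 CPM 30.0% of 20 near genes and 10.3% of 1742 far genes. Neighbouring genes and members of gene families near ends are not independent, and no test was made of these shares.

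**Figure D5:**
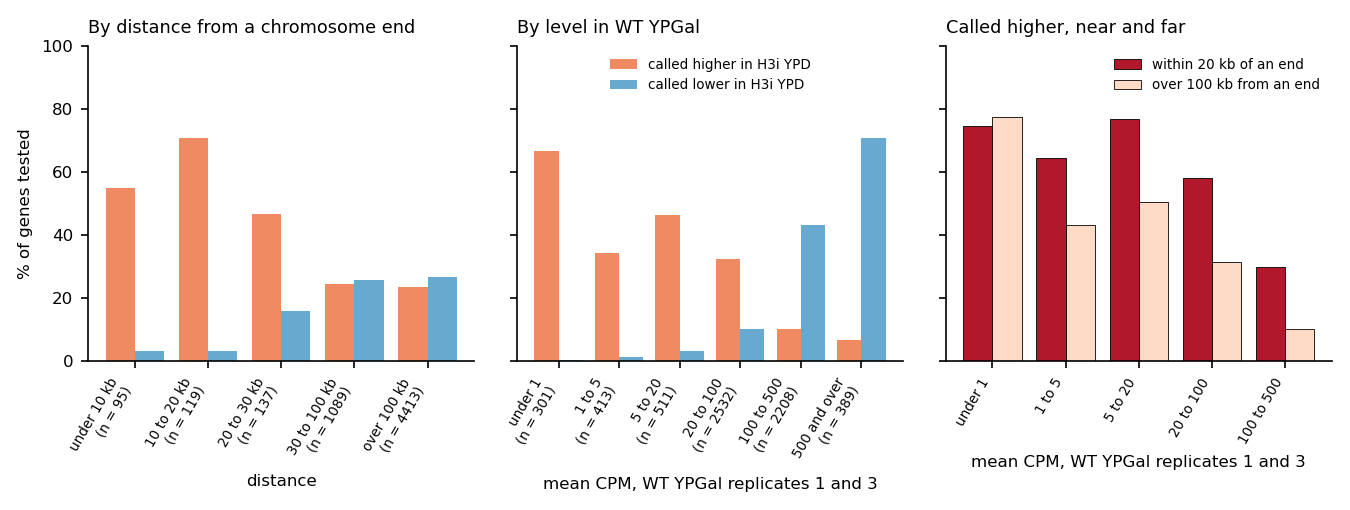
Share of tested genes called higher and lower in H3i YPD by distance from a chromosome end (left) and by mean CPM in WT YPGal (middle), and share called higher within 20 kb of an end (left bars) and over 100 kb from one (right bars) at equal level (right). The share called higher falls to 6.68% and the share called lower reaches 70.7% in the group of highest level.

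Genes of carbon use that glucose keeps off were higher in H3i than in WT in the same glucose medium. Of 10 galactose genes 7 were called higher (median 2.35), and 4 without H3i YPD replicate 3 or without WT YPD replicate 1. GAL1, galactokinase, whose promoter drives HHT2 in H3i, had 74.0, 42.5 and 99.0 CPM in H3i and 9.51, 6.62 and 14.8 CPM in WT (2.20 ± 0.61, adjusted p = 0.0196). The groups did not overlap, but the call was lost without H3i replicate 3 (0.191), without WT replicate 1 (0.184), without WT replicate 3 (0.0636) and with WT replicate 3 dropped in both media (0.0842). In YPGal, GAL1 had 10650, 11780 and 3956 CPM in H3i and 8691, 6616 and 4973 CPM in WT, so that the level in H3i YPD was a small part of the induced one. GAL7, the uridylyltransferase, had 210, 380 and 138 CPM in H3i YPD and 2.60, 10.5 and 13.0 CPM in WT YPD (3.62 ± 0.76, adjusted p = 0.00631), and GAL10, the epimerase, 188, 200 and 176 CPM in H3i and 19.9, 7.44 and 10.5 CPM in WT (3.13 ± 0.53, adjusted p = 0.00253; 0.0523 with WT replicate 3 dropped in both media). GAL2, the galactose transporter, had 46.9, 34.3 and 59.3 CPM in H3i and 1.30, 6.04 and 6.05 CPM in WT (2.98 ± 0.87, adjusted p = 0.0233; 0.187 without H3i replicate 3 and 0.141 without WT replicate 1).

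Of 19 glucose-repressed genes 11 were called higher and 0 lower (median 2.89). This count was 3 without WT YPD replicate 1, 6 without WT YPD replicate 3, 7 without H3i YPD replicate 1 and 4 without H3i YPD replicate 3, and 15 with WT replicate 3 dropped in both media. SIP4, an activator of gluconeogenic genes, had 211, 226 and 219 CPM in H3i and 0.865, 2.60 and 3.56 CPM in WT (5.85 ± 0.92, adjusted p = 0.00191). Of 18 hexose transporter genes 11 were called higher, 7 without WT YPD replicate 1, and 2 were called lower. HXT10 had 191, 213 and 144 CPM in H3i and 0, 0.669 and 1.19 CPM in WT (6.99 ± 0.77, adjusted p = 0.000818). The pair called lower were low-affinity transporters of cells in ample glucose, HXT1 (504, 3.66 and 667 CPM in H3i, 765, 1.01 and 862 CPM in WT, −1.11 ± 0.27) and HXT3 (1336, 2036 and 1387 CPM in H3i, 1576, 2895 and 3102 CPM in WT, −1.35 ± 0.41). Neither was called with library totals (adjusted p = 0.125 and 0.16), and each lost its call when certain single libraries were left out, HXT1 without H3i replicate 3 (0.0501) or WT replicate 1 (0.107) and HXT3 without H3i replicate 1 (0.0731), H3i replicate 3 (0.0994) or WT replicate 3 (0.212).

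In glycolysis 5 of 17 genes were called higher (29.4%) and 4 lower (23.5%), near the 26.0% and 23.7% of all genes. TDH1, the glyceraldehyde-phosphate dehydrogenase isoform of slow growth and stress, had 2235, 3225 and 1312 CPM in H3i and 6.05, 150 and 55.4 CPM in WT (6.15 ± 0.94, adjusted p = 0.00174). The count called higher was 3 without H3i YPD replicate 1, and that called lower 8 without WT YPGal replicate 1 or 3 and 10 with DESeq2. Of 15 fermentation genes 5 were called higher and 2 lower, and 8 higher without WT YPGal replicate 1 or 3; DESeq2 called 6 higher and 6 lower. In the main fit the fermentation shares were 33.3% higher and 13.3% lower, beside 26.0% and 23.7% of all genes. Of the pyruvate decarboxylases, PDC5 had 1249, 1945 and 877 CPM in H3i and 21.6, 26.3 and 27.9 CPM in WT (4.85 ± 0.51, adjusted p = 0.000818), and PDC6 1226, 8.28 and 413 CPM in H3i and 0.865, 0.0383 and 2.48 CPM in WT (8.21 ± 0.98). No H3i library overlapped a WT library in these 3 genes. Of 17 genes of the TCA cycle 8 were called higher and 0 lower (median 1.02); the count was 1 without WT YPD replicate 1, 3 without WT YPD replicate 3, 5 without H3i YPD replicate 1 and 3 without H3i YPD replicate 3. IDH2, a subunit of isocitrate dehydrogenase, had 1539, 1727 and 672 CPM in H3i and 198, 262 and 110 CPM in WT (2.16 ± 0.35, adjusted p = 0.00227).

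Nuclear genes of oxidative phosphorylation fell on the scale of the fit, 26 of 36 called lower and 2 higher (median −1.24). The count called lower rested on few libraries: it was 5 without H3i YPD replicate 1, 8 without WT YPD replicate 1, 2 without WT YPD replicate 3 and 4 with library totals. COX26, a subunit of the respiratory supercomplex, was called higher, with 37.7, 24.1 and 48.4 CPM in H3i and 5.62, 2.43 and 6.80 CPM in WT (2.21 ± 0.25, adjusted p = 0.000836). Mitochondrial ribosomal protein genes were called lower in 33 of 69 and higher in 1 (median −0.68), with 15 lower and 8 higher under library totals and a median of 1.09 within replicate 2. Proteasome genes were called lower in 23 of 33 and higher in 0 (median −1.03); the count was 15 without H3i YPD replicate 1, 10 without WT YPD replicate 1 and 7 with library totals. On library totals the median log2 ratio of the proteasome genes was −0.47, 0.78 and −0.34 within replicates 1, 2 and 3, so that replicate 2 went the other way.

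Genes that act on chromatin moved in both directions. Among 9 regulators of histone genes 5 were called higher and 0 lower (median 0.73). HIR1 and HIR3, subunits of the HIR complex, had 184, 404 and 171 CPM and 169, 15.7 and 186 CPM in H3i, against 55.8, 0.249 and 45.4 CPM and 40.2, 0.21 and 66.1 CPM in WT (1.23 ± 0.30 and 1.15 ± 0.23, adjusted p = 0.0117 and 0.00489). SPT10 had 112, 7.11 and 83.2 CPM in H3i and 28.5, 0.516 and 28.5 CPM in WT (1.14 ± 0.28, adjusted p = 0.0115). HIR3 kept its call in every fit that left out 1 library. HIR1 lost it without H3i replicate 3 (0.0863), WT replicate 1 (0.069) or WT replicate 3 (0.0634), and SPT10 without H3i replicate 1 (0.0546) or WT replicate 1 (0.0943). The count of regulators called was 3 without either H3i YPD library, 1 without WT YPD replicate 1 and 2 without WT YPD replicate 3.

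Among RAP1, RIF1, RIF2 and SIR1 to SIR4, 5 of 7 were called higher and 0 lower. RIF1, a Rap1 partner that limits telomere length and replication origins, had 294, 556 and 324 CPM in H3i and 82.2, 248 and 88.8 CPM in WT (1.25 ± 0.21, adjusted p = 0.00264), with no overlap, and was called in every fit that left out 1 library. SIR1, which helps to start silencing at the silent mating loci, had 68.9, 176 and 107 CPM in H3i and 16.9, 0.0383 and 21.6 CPM in WT (1.58 ± 0.37, adjusted p = 0.0101; 0.0527 without H3i replicate 3 and 0.0763 without WT replicate 3). SIR4 had 196, 440 and 306 CPM in H3i and 71.3, 0.0191 and 94.0 CPM in WT (0.99 ± 0.25, adjusted p = 0.0128; 0.102 without H3i replicate 3, 0.0671 without WT replicate 1 and 0.0779 without WT replicate 3). SIR2, the histone deacetylase of the complex, and SIR3, which binds nucleosomes, passed narrowly (0.78 ± 0.28 and 0.72 ± 0.24, adjusted p = 0.0466 and 0.0396). SIR2 lost the call in all 8 fits that left out 1 library, and SIR3 in 5. RIF2 did not pass (0.24 ± 0.39, adjusted p = 0.619). The count of the 7 that were called was 1 without H3i YPD replicate 3 or without WT YPD replicate 3, 2 without WT YPD replicate 1, 3 without either H3i YPGal library, and 3 with WT replicate 3 dropped in both media.

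Nucleosome assembly factors were called lower in 6 of 18 and higher in 1 (median −0.34), beside 23.7% and 26.0% of all genes, and 3 were lower without H3i YPD replicate 3. Library totals turned the balance to 5 higher and 3 lower (median 0.27). NHP6A, an HMG-box protein that works with the FACT complex, had 11, 20.3 and 14.3 CPM in H3i and 64.0, 91.2 and 57.2 CPM in WT, with no overlap (−2.81 ± 0.31, adjusted p = 0.000832). NAP1, a chaperone of H2A and H2B, had 147, 3.08 and 85.4 CPM in H3i and 341, 3.19 and 141 CPM in WT (−1.59 ± 0.28, adjusted p = 0.00303).

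Cell cycle genes moved unevenly. Genes of the M/G1 phase and of daughter cell separation were called lower in 15 of 35 and higher in 2 (median −0.71), with 9 lower without H3i YPD replicate 1 or without WT YPD replicate 1. AMN1, which helps to end mitosis in daughter cells, had 104, 39.5 and 191 CPM in H3i and 595, 796 and 569 CPM in WT (−2.60 ± 0.36, adjusted p = 0.00128). PIR3, a cell wall protein of the same list that also responds to cell wall stress, went the other way, with 355, 250 and 186 CPM in H3i and 2.16, 96.6 and 18.5 CPM in WT (4.09 ± 0.70, adjusted p = 0.00277). CLB2, the main mitotic cyclin, had 33.5, 41.3 and 54.1 CPM in H3i and 94.3, 163 and 176 CPM in WT (−2.20 ± 0.26, adjusted p = 0.000884). TOS1, a cell wall protein gene of the G1/S list, had 214, 262 and 276 CPM in H3i and 1261, 1582 and 1271 CPM in WT (−2.97 ± 0.34, adjusted p = 0.000836). These 4 genes showed no overlap between groups. With library totals 10 of the M/G1 list were called lower and 4 higher. The G1/S list had 26.8% called higher and 17.1% lower in the main fit, beside 26.0% and 23.7% of all genes. In the G1/S list as a whole 11 of 41 were called higher and 7 lower, 23 and 3 with library totals; 4 were higher without H3i YPD replicate 3 and 3 without WT YPD replicate 3, and 4 were lower without either WT YPD library. Of 51 DNA replication genes 13 were called higher (25.5%) and 3 lower (5.88%), beside 26.0% and 23.7% of all genes. Fewer were called higher without H3i YPD replicate 3 or without WT YPD replicate 3. The count of replication genes called lower was 1 without H3i YPD replicate 1 or WT YPD replicate 1, and 5 without WT YPGal replicate 3; library totals gave 26 higher and 1 lower.

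Among amino acid genes, LYS1, saccharopine dehydrogenase of lysine synthesis, had 815, 7.99 and 465 CPM in H3i and 65.3, 0.516 and 42.3 CPM in WT (2.94 ± 0.21, adjusted p = 0.000608), while the Gcn4 list as a whole held 8 higher and 21 lower of 51. Those higher were 5 without WT YPD replicate 1 and 4 without WT YPD replicate 3, and those lower 13 without WT YPD replicate 1. Genes under nitrogen catabolite repression, which a good nitrogen source keeps off, were called higher in 18 of 31 and lower in 2 (median 1.56). Ergosterol genes were called lower in 8 of 24 and higher in 1, beside 23.7% and 26.0% of all genes, with 4 lower without H3i YPD replicate 1 and 2 without WT YPD replicate 1; library totals turned the balance to 6 higher and 3 lower. MET17, sulfhydrylase of methionine synthesis and a strain marker, had 3170, 4185 and 1994 CPM in H3i and 325, 408 and 166 CPM in WT, with no overlap (2.81 ± 0.34, adjusted p = 0.000905).

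The mating type and marker genes check which strains the libraries hold. The a-specific genes summed to 1560, 1347 and 1778 CPM in H3i YPD and 2615, 1102 and 62.6 CPM in WT YPD, and the alpha-specific genes to 601, 118 and 546 CPM in H3i YPD and 42.4, 10.7 and 4073 CPM in WT YPD. H3i and WT replicates 1 and 2 thus read as a cells, and WT replicate 3 as alpha cells. HIS3 and TRP1 had 0 counts in the 3 H3i libraries and in WT replicates 1 and 2, and 21.9 and 84.1 CPM in WT replicate 3. LEU2, URA3 and LYS2 had 239 to 1104 CPM in H3i, 139 to 542 CPM in WT replicates 1 and 2 and 0 in WT replicate 3. The calls of HIS3 and TRP1 therefore rest on that library alone; they are 2 of 6 called genes whose direction was not shared by replicates 1 and 3.

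Alpha-specific genes were read in H3i, above their level in WT replicates 1 and 2 and below that in WT replicate 3. MF(ALPHA)1, which encodes the alpha pheromone, had 53.8, 0.146 and 105 CPM in H3i YPD and 0, 0 and 2325 CPM in WT YPD. STE3, the receptor for a pheromone, had 120, 35.5 and 165 CPM in H3i YPD and 2.60, 0.344 and 600 CPM in WT YPD, and in H3i YPGal it had 5.01, 1.03 and 18.4 CPM. In H3i the a-specific genes were read in the same libraries, with MFA1 at 133, 103 and 82.4 CPM in H3i and 173, 77.9 and 1.30 CPM in WT. PRM1, a membrane protein of mating cells of either type, had 415, 249 and 322 CPM in H3i and 16.0, 4.29 and 23.3 CPM in WT, with no overlap (3.62 ± 0.27, adjusted p = 0.000679). The list of haploid-specific and pheromone response genes went both ways, with 10 of 30 called higher and 9 lower (median 0.15). These are 33.3% and 30.0%, beside 26.0% and 23.7% of all genes.

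In YPGal, where HHT2 was on in H3i, the same fit called 0 of 6354 genes between H3i and WT, with 114 at an unadjusted p under 0.05; DESeq2 called 12. HHT1, deleted in H3i and at 3.34, 1.09 and 0.0997 CPM in H3i YPGal against 881, 1329 and 689 CPM in WT YPGal, was itself not called there (adjusted p = 0.0603), so the 0 does not show that the strains were alike in YPGal. That comparison shares no library with the YPD one, though both come from the same fit, with its filter, kit term and spread. The difference between the media was itself tested: the log2 fold change between strains differed between YPD and YPGal for 1756 genes (27.6%), 835 more positive and 921 more negative in YPD. Without the replicate block this count was 25, without H3i YPGal replicate 1 it was 524, without H3i YPGal replicate 3 it was 752 and without WT YPD replicate 1 it was 623. The difference was called for 75 of 81 large-subunit and 56 of 56 small-subunit ribosomal protein genes, all more negative in YPD, and for 25 of 44 general stress genes, all more positive.

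Measures of the libraries moved with the groups as well. Alignments that were not unique made up 25.4%, 38.5% and 22.0% of aligned entries in H3i YPD and 15.8%, 17.7% and 14.5% in WT YPD. Unique alignments outside any feature were 7.54%, 8.82% and 9.64% in H3i YPD and 3.17%, 5.88% and 5.44% in WT YPD. Transfer RNA genes, whose mature products carry no poly(A) tail, took 0.0470%, 0.0431% and 0.0682% of gene counts in H3i YPD and 0.0067%, 0.00724% and 0.0218% in WT YPD. Coding genes under 5 CPM numbered 268, 1037 and 232 of 5989 in H3i YPD and 762, 2916 and 527 in WT YPD. None of these groups of values overlapped within replicates 1 and 3, and their part in the calls was not tested. Of 299 tRNA genes 68 passed the filter, 27 were called higher and 1 lower, beside 26.0% and 23.7% of all genes; those that passed only through H3i YPD had to be higher there, so the counts describe and do not test. Without a filter 39 of 260 were called higher (24.1% of all genes in that fit), and DESeq2 called 11 of 68 higher. The gene tY(GUA)D had 53.3, 107 and 41.3 CPM in H3i and 0.432, 0 and 0.648 CPM in WT (5.68 ± 0.64, adjusted p = 0.000836). The count of tRNA genes called higher was 16 without H3i YPD replicate 1 or without H3i YPGal replicate 3, 10 without H3i YPD replicate 3, 13 without WT YPD replicate 1, and 4 without WT YPD replicate 3.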

How the data were processed

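Poly(A) RNA of 12 cultures was sequenced. MagMax extraction and the TruSeq Stranded mRNA kit were used for replicates 1 and 2, and Trizol with glass beads and the TruSeq Stranded mRNA LT kit for replicate 3, per the labels' protocols. The deposited tables hold whole read counts per gene, made by the authors for each library (7127 features and 5 entries that name no gene, left out of totals, whose share of a file was 27.5% to 38.6% for replicate 1, 66.3% to 74.5% for replicate 2 and 22.0% to 33.7% for replicate 3). FastQC, HISAT2, SAMtools, Picard, DESeq2 and the sacCer3 build are named in the submitters' processing notes. With the counter and strand setting not given in the sources used here, overlapping and antisense genes may share reads.

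Counts were fitted in R 4.3.3 with edgeR 4.0.16 (TMM, filterByExpr, quasi-likelihood test, Benjamini-Hochberg adjustment over 6354 genes): replicates 1 and 3 of 4 groups, with a kit term that equals a replicate block (3 residual degrees of freedom, common biological coefficient of variation 0.273). Standard errors are the log2 fold change over the root of F. Deviations from group means correlated at r = 0.375 to 0.818 in all 18 pairs of libraries with equal replicate number (5842 genes). Pairs of unequal number are not given, replicate 2 lost counts in every group, and kits went with replicate number. These values therefore cannot show that cultures were paired. Replicates are separate cultures per the series design, and p-values measure the spread left after the kit term. A gene under 1 CPM in replicate 1 had 2 counts or fewer. Counting intervals and floors cover counting error only, as reads carry no molecular identifiers.

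The comparison, the 43 gene lists and the tests were chosen with earlier results of these data known; promoter motifs other than TATAAA, the Rap1 core and the X-box, and the window of 500 bases, were added after the data were seen. Named genes are histone, RAP1, RIF and SIR genes, the 8 highest and 8 lowest called genes at 10 CPM or more, up to 3 called members per list, and markers. GAL1, HXT1, HXT3, DBP2 and RRP8 were chosen after their values were seen. RefSeq locus tags matched 6047 features and gave symbols and coordinates (R64, the same build as sacCer3), where a start is the start codon. Counts were also simulated with the common spread of the fit for every gene, without a replicate or kit effect. On these, the fit recovered 95 of 100 genes changed 4-fold and 9 of 100 changed 2-fold, with 5 of 6047 unchanged genes called. In the data 49.8% of genes were called, far more than were changed in the simulation, so these rates need not hold for the real libraries. Alternatives were other normalizations, no filter, DESeq2 1.42.0, other sets of libraries and leaving out each library.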

Additional observations from a re-analysis of the deposited data

Results flagged for a closer look

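The difference between strains was itself different in the 2 media for 1756 genes by the interaction test of edgeR, and values below are the log2 fold change between H3i and WT in YPD minus that in YPGal for genes named above. Each was flagged because this difference passed the test.

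Among chromatin genes the difference was −7.36 for HHT2, −1.51 for HHF2, −1.48 for HTB2, −1.70 for HTZ1, −1.29 for HHO1, −2.53 for NHP6A and −1.48 for NAP1, and 1.23 for HIR3, 1.41 for RIF1 and 1.47 for SIR4. For HHF2 the test passed narrowly (adjusted p = 0.0471), and replicate 2, not in the fit, had 8.74 CPM in H3i YPD and 678 CPM in WT YPD, against 5.13 CPM in H3i YPGal and 1306 CPM in WT YPGal, a larger gap in YPGal. Genes of the translation machinery were all more negative in YPD: −3.56 for RPS21A, −3.63 for RPL12A, −3.44 for RPL27B, −3.43 for RPS17B and −3.43 for EGD2. The ribosome biogenesis genes stood at −2.89 for CBF5, −2.56 for NOP56, −2.57 for NHP2, −2.85 for DBP2 and −2.67 for RRP8.

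Genes of stress and DNA damage were more positive in YPD, with 6.39 for GND2, 5.15 for GRE1, 5.79 for SSA4, 4.85 for SSA3, 6.24 for HUG1, 5.40 for RNR3 and 6.39 for DDI3. Genes that are silent in WT glucose cultures gave large differences, whose size depends on prior counts where WT is at 0: 10.12 for FDH1, 8.20 for ERR3, 12.63 for PAU19, 8.85 for PAU5, 4.48 for DAN1, 8.07 for HSP32 and 7.94 for DAL80. The differences were 9.03 for LDS1, 7.84 for OSW1, 5.24 for SPO20, 7.75 for THI5 and 6.60 for THI12.

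For carbon use they were 3.36 for GAL7, 2.73 for GAL10, 5.58 for SIP4, 4.81 for HXT10, −1.46 for HXT1, 6.05 for TDH1, 5.32 for PDC5, 7.75 for PDC6, 1.97 for IDH2 and 1.42 for COX26. For surface, cell cycle and mating genes they were 4.21 for FLO1, 4.26 for FLO11, 3.89 for PIR3, 3.24 for PRM1, −2.27 for CLB2, −2.97 for AMN1 and −2.72 for TOS1. The last were 2.97 for LYS1, 2.96 for MET17, −2.57 for OLE1, −4.40 for YBR191W-A and −3.31 for YPL142C.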

How the results depend on the processing

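The counts called between H3i and WT in YPD (3163, of which 1654 higher and 1509 lower) moved most with replicate 2 in the fit: all 12 libraries gave 6 (2 and 4) with a kit term, 716 (346 and 370) with a replicate block, and 0 without both WT libraries of replicate 3 (552 at an unadjusted p under 0.05 in edgeR). Without a replicate block replicates 1 and 3 gave 1579 (836 and 743), and library totals moved the split to 2723 and 799. Leaving out 1 library gave 1917 to 3358 called, 992 to 1735 higher and 925 to 1668 lower. Between H3i and WT in YPGal, 0 calls became 2 without both WT libraries of replicate 3, 3 without a filter, 12 with DESeq2, and 0 to 5 when 1 library was left out. The interaction count of 1756 became 1 and 208 with all 12 libraries (kit term; replicate block), 0 in those without both WT libraries of replicate 3 (302 at an unadjusted p under 0.05), 25 with no replicate block, and 524 to 1591 when 1 library was left out; replicates 1 and 3 without both WT libraries of replicate 3 gave 1779. DESeq2 size factors, DESeq2's Wald test and no filter kept the YPD counts within 1.5 times. The cause of these moves was not tested.

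Of 73 named genes that were called, 61 were called in every fit that left out 1 library, 67 without both WT libraries of replicate 3, 70 with library totals and 46 with all 12 libraries and a replicate block. Not among these 73 were tD(GUC)J2, HIS3 and TRP1, which were also called and whose dependence on WT replicate 3 is described above. Signs turned for genes that were not called: CSE4 to 2.57 with all 12 libraries and the block and to 0.17 with library totals, which also turned HTA1 to 0.39, HTA2 to 0.08, HTB1 to 0.20 and RAP1 to 0.05. Without both WT libraries of replicate 3, HTA1 was at 0.12, HHF1 at 0.28 and RIF2 at 0.88, and without WT YPD replicate 1 they were at −0.42, −0.04 and −0.18. The proteasome median was 0.78 within replicate 2 alone, on library totals. Replicate 1 has the fewest counts, which limits genes under about 5 CPM.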
